A study of Homo sapiens with 6 samples.

Results

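CELF1 (also CUGBP1), an RNA-binding protein that recognises GU-rich sequences and acts on splicing, translation and mRNA decay, was immunoprecipitated from 2 established human melanoma lines, SK-Mel-103 and UACC-62, and the co-purified RNA (the IP) was sequenced, as was RNA from each lysate before immunoprecipitation (the input). The labels give neither a genotype nor a treatment other than the immunoprecipitation, and cells were fixed with formaldehyde before lysis. SK-Mel-103 was represented by replicate 1 and UACC-62 by replicates 1 and 3, each IP with its own input, which gave 6 samples in all. SK-Mel-103 therefore had no replicate. Values of the 3 IP samples are given below in that order, SK-Mel-103 first, unless stated otherwise. The genes described here are 9 genes of the Wnt and β-catenin pathway, namely CTNNB1, APC, AXIN1, AXIN2, GSK3A, GSK3B, TCF7L2, LEF1 and LRP6, out of 19833 protein-coding genes. They were chosen by name and followed through the 20-bp bins whose centre lay in one of their exons on the transcript strand. Such bins numbered 807 of 816781 listed bins in SK-Mel-103, and 827 of 780750 and 960 of 862731 in UACC-62 replicates 1 and 3. All 9 genes had at least 1 listed exonic bin in each of the 3 IP samples.

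Wnt ligands bind Frizzled receptors together with the co-receptors LRP5 and LRP6. Without ligand, β-catenin is phosphorylated in a destruction complex of APC, Axin, casein kinase 1 and glycogen synthase kinase 3 and is then degraded. With ligand, the complex is inactivated, and β-catenin accumulates and acts in the nucleus with DNA-binding partners of the TCF and LEF family. In the melanocyte lineage, Wnt signalling acts in the specification of melanocytes from the neural crest and upstream of MITF, the lineage regulator. β-catenin also links cadherins to the cytoskeleton at cell contacts.

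The lists contained 10958459, 11333805 and 14436573 reads of the IP, and the inputs 8453517, 10161917 and 8900292 reads in the same bins. Only bins that had passed the peak caller were listed, so that a value below the input still came from bins called in the IP, and reads outside these bins are not known. Inputs differed between the lines in melanocyte genes. The summed input of 7 melanocyte markers was 24.3 RPKM (reads per kb of exon, scaled to the list total) in SK-Mel-103, compared with 516 and 449 in UACC-62, and TYR, DCT and S100B had no listed read in SK-Mel-103. PMEL had no listed bin in any sample, whereas SOX10 had input reads in all 3. Keratinocyte markers had no listed read, and leukocyte markers had at most 0.0379 RPKM of input. The fibroblast markers summed to 0.443, 8.81 and 5.76 RPKM, all from LUM, with COL1A1 at 0. CELF1 mRNA itself had 32770, 35774 and 32025 IP reads over 4079, 3156 and 2061 input reads.

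Of the 9 genes, 3 had a common bin, defined as the same bin passing 30 IP reads with p under 0.05 in all 3 IP samples, and are called bound below. These were CTNNB1 with 36 common bins, LEF1 with 4 and GSK3B with 2. A common bin was found in 8.71% of all protein-coding genes (1728 of 19833). Only 10040 of these had a listed exonic bin in each sample, as all 9 genes did. A common bin requires this, so that the share among such genes was higher, at 1728 of 10040. When all listed exonic bins of a gene were summed, IP reads exceeded input reads in all 3 samples, each relative to its list total, for TCF7L2, LEF1, GSK3B and AXIN2. The same held for 31.2% of the 10040 genes with a listed exonic bin in each sample. IP reads were below input in all 3 samples for CTNNB1, APC and GSK3A, and for 43.8% of all genes. AXIN1 and LRP6 were above input in SK-Mel-103 and below it in both UACC-62 replicates.

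Hence CTNNB1, with the most common bins, was also the lowest of the 9 genes relative to its input, and TCF7L2, without any common bin, was the highest. This value, log2 IP over input (the log2 ratio), is the log2 of IP over input reads with a pseudocount of 1 read, relative to the same ratio of the list totals. Its 95% intervals are exact (Clopper-Pearson) and cover counting error only. Over all genes its median was −0.07, −0.42 and −0.21 in the 3 samples. Centred on these medians, the 9 genes split into 5 above (with LRP6) and 2 below (CTNNB1 and GSK3A) in place of 4 and 3, and without division by the list totals into 4 above and 1 below (CTNNB1). Exact tests cannot pass a threshold of 0.05 in this design, because 3 samples of one sign give a smallest 2-sided p of 0.25 in an exact sign test and 1 sample against 2 gives 0.333 in an exact permutation test. No model-based test was run.

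**Figure D1:**
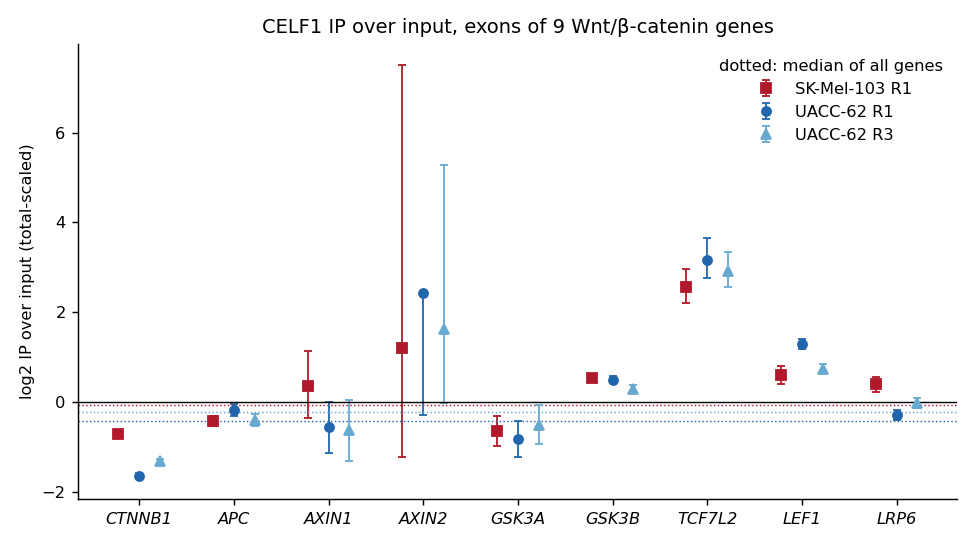
Log2 IP over input of the 9 genes (y axis, relative to the list totals) in SK-Mel-103 replicate 1 (squares), UACC-62 replicate 1 (circles) and UACC-62 replicate 3 (triangles); bars are exact 95% intervals for counting error, the upper one of AXIN2 in UACC-62 replicate 1 being open because its input was 0, and dotted lines mark the median of all genes per sample. TCF7L2 lay between 2.56 and 3.17 and CTNNB1 between −1.64 and −0.72.

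**Figure D2:**
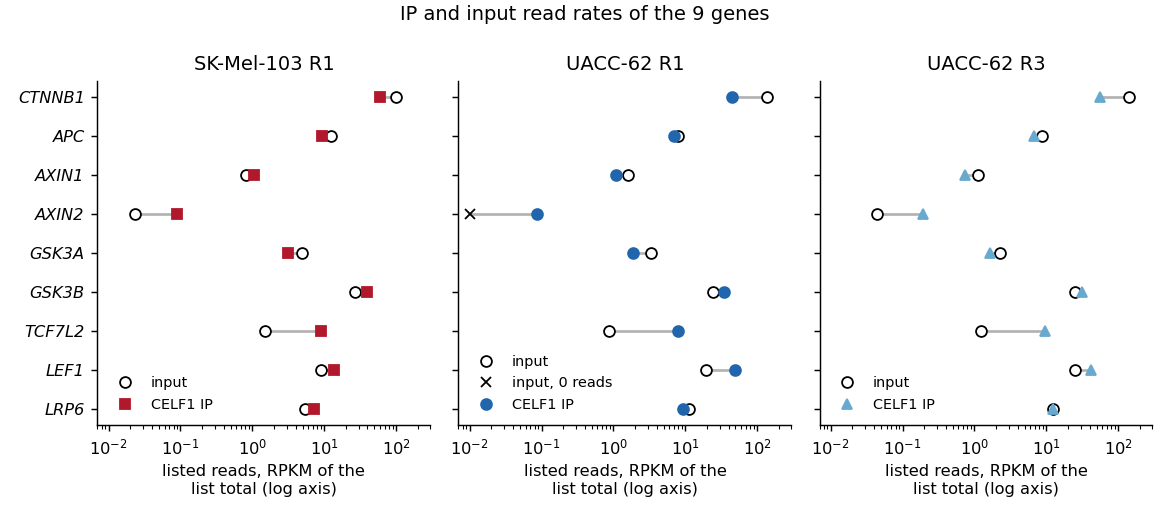
Listed IP reads (filled) and input reads (open) in RPKM of the list totals on a log axis, one panel per sample, with a cross at the left edge for 0 input reads. CTNNB1 had the highest input rate in each panel and less IP than input, whereas TCF7L2 had IP rates of 7.96 to 9.46 over input rates of 0.868 to 1.49.

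The co-receptor LRP6 (chr12:12268959-12419978, minus strand, GRCh37) had 808 IP over 473 input reads in SK-Mel-103, 1065 over 1161 in UACC-62 replicate 1 and 1822 over 1134 in replicate 3. LRP6 stood at a log2 ratio of 0.40 (95% interval 0.23 to 0.56) for SK-Mel-103 and −0.15 ± 0.19 (SD, n = 2) in UACC-62, with −0.28 and −0.01 in the 2 replicates, the interval of the second including 0. The UACC-62 mean of LRP6 became 0.28 without division by the list totals, 0.17 relative to the median of all genes and 0.16 in 3′ UTR bins alone. Its reads were spread thinly, with 120 to 217 listed bins of 512 in its exons and no more than 35 IP reads in any of them. In the 3′ UTR, LRP6 carried a GU-rich element of 23 nt made of GUUU repeats, 1137 to 1159 nt after the stop codon (chr12:12272901-12272930, minus strand). It is shown because no listed bin overlapped it in any sample, and capitals mark the element:
LRP6 1137 nt after the stop: atatATTTTGTTTGTTTGTTTGTTTTCtga
A second element of LRP6, 652 to 666 nt after the stop codon, was covered by 12, 14 and 10 IP reads over 11, 13 and 11 input reads.

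The scaffolds of the destruction complex showed little IP over input, or few reads. APC (chr5:112043215-112181936, plus strand), the tumour suppressor that holds β-catenin in the complex, had 1157 IP over 1194 input reads in SK-Mel-103, 909 over 924 in UACC-62 replicate 1 and 1109 over 898 in replicate 3. On the log2 scale this was −0.42 for SK-Mel-103 and −0.29 ± 0.15 (SD, n = 2) in UACC-62. The UACC-62 mean became 0.14 without division by the list totals and 0.028 relative to the median of all genes. The reads of APC were not uniform along the mRNA. In its 3′ UTR the value was 0.37, 0.69 and 0.25 in the 3 samples, whereas in its coding region it was −0.70, −0.77 and −0.65, with no overlap between the regions. Most 3′ UTR reads of APC lay in the first of 3 equal parts, which held 61.7%, 74.3% and 69.2% of its 3′ UTR IP reads. The bin with the most IP reads of the whole 3′ UTR, in its middle part, had 25, 36 and 38 IP reads, under the peak filter in SK-Mel-103 and above it in UACC-62. Its surrounding 30 nt (chr5:112180536-112180565) are given with UGU, the trinucleotide within CELF1 recognition sequences, in capitals and with T for U:
APC 731 nt after the stop: ggtagaatttttgctatgcTGTaattTGTt

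AXIN1 and AXIN2, the scaffolds that limit assembly of the complex, the second also a feedback target of the pathway, had too few reads for a firm value. AXIN1 (chr16:337440-402723, minus strand) had 44, 47 and 40 IP reads over 26, 62 and 38 of the input. This gave a log2 ratio of 0.36 (95% interval −0.35 to 1.14) for SK-Mel-103 and −0.59 ± 0.05 (SD, n = 2) in UACC-62. The intervals of UACC-62 replicates 1 and 3, −1.14 to 0.01 and −1.30 to 0.06, also included 0. AXIN2 (chr17:63524681-63557766, minus strand) had 5, 5 and 14 IP reads over 1, 0 and 2 input reads. The interval of AXIN2 included 0 in all 3 samples, so that its place among the genes above input rests on these few reads. No bin of either gene was listed in all 3 samples.

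The paralogous kinases GSK3A and GSK3B, which phosphorylate β-catenin, differed in the lists. GSK3A (chr19:42730377-42746777, minus strand) had 143, 90 and 98 IP reads over 171, 142 and 85 input reads, and its log2 ratio was −0.63 for SK-Mel-103 and −0.65 ± 0.22 (SD, n = 2) in UACC-62. GSK3B (chr3:119540168-119813841, minus strand) had 3485, 3224 and 3661 IP reads over 1838, 2034 and 1832 input reads. Its value was 0.55 in SK-Mel-103 and 0.40 ± 0.15 (SD, n = 2) in UACC-62, above the highest value of GSK3A, which was −0.49, in every sample. In coding bins alone, GSK3B had −0.51, −0.91 and −0.77 and GSK3A had −0.75, −0.88 and −0.62. There, GSK3B was the higher of the pair only in SK-Mel-103. In RPKM, GSK3B had 31.3 to 39.2 in the IP and 24.7 to 26.8 in the input, whereas GSK3A had 1.63 to 3.12 and 2.29 to 4.84. Of the 32-nt sequences of GSK3A exons, 5.09% occurred elsewhere in the genome, the highest share of the 9 genes, and how many of its reads also aligned elsewhere was not tested.

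The signal of GSK3B was in its 3′ UTR, which is the longest of the 9 genes. There, the log2 ratio was 0.87, 0.995 and 0.73, compared with −0.51, −0.91 and −0.77 in its coding region. The middle part of the 3′ UTR, of 3 equal parts, had the highest value in each sample, at 1.39, 1.76 and 0.98. Reads were distributed over 197 to 212 of 280 bins of the 3′ UTR, and 14 to 17 bins of the gene exceeded 30 IP reads. Among these, 2 were common, with 57, 52 and 63 IP reads over 29, 22 and 16 input reads in the first and 32, 36 and 34 over 18, 9 and 9 in the second. The second bin was therefore only just above the filter in all 3 samples. Sequences of 30 nt around the 2 common bins (chr3:119544536-119544565 and chr3:119545136-119545165, minus strand) are shown, with UGU in capitals, because neither holds a GU repeat:
GSK3B 1087 nt after the stop: aatagccacattctacacatagttctaatt
GSK3B 487 nt after the stop: ggtataactcaacggggacttaaaTGTcac

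CTNNB1 (chr3:41236232-41301587, plus strand), which encodes β-catenin, was the gene with the most reads among the 9. It had 5071 IP over 6423 input reads in SK-Mel-103, 3921 over 10927 in UACC-62 replicate 1 and 6315 over 9688 in replicate 3. The log2 ratio of CTNNB1 was −0.72 (95% interval −0.77 to −0.66) for SK-Mel-103 and −1.48 ± 0.23 (SD, n = 2) in UACC-62, with both UACC-62 values, −1.64 and −1.32, below that of SK-Mel-103. The value stood at the 25.2, 15.2 and 17.6 percentiles of all genes, and among genes with a number of reads within a factor of 2 of its own at the 39.96, 25.5 and 23.0 percentiles. It remained below 0 in every sample without division by the list totals and relative to the median of all genes. Of its 36 common bins, 22 lay in the coding region and 14 in the 3′ UTR.

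Within CTNNB1, the 3′ UTR had log2 IP over input of −0.29, −1.13 and −0.80 and the coding region −1.03, −1.92 and −1.67. The 3′ UTR was thus higher by 0.75, 0.79 and 0.87 on the log2 scale, a difference that varied little between samples although the levels did. The last of 3 equal parts of the 3′ UTR held 47.7%, 57.9% and 55.3% of its IP reads and 44.8%, 52.4% and 54.6% of its input reads, so that the accumulation of reads towards the end was present in both. The bin with the most IP reads, 1021 nt after the stop codon and 83 nt before the end of the transcript, had 228, 187 and 389 IP reads over 318, 444 and 413 input reads. The next bin, 1041 nt after the stop codon, had 133, 88 and 206 IP reads over 42, 129 and 128 input reads. There, the IP exceeded the input in the first and the last of these samples, before division by the list totals. After that division, only SK-Mel-103 remained above its input in this bin. Sequences of 30 nt around the most covered common bins (chr3:41281836-41281865, chr3:41281856-41281885, chr3:41281336-41281365 and chr3:41281736-41281765, plus strand) are given with UGU in capitals, to show that these bins differ in whether they hold it:
CTNNB1 1021 nt after the stop: gccttttatcccaaagtTGTTGTaacctgc
CTNNB1 1041 nt after the stop: TGTaacctgcTGTgatacgatgcttcaaga
CTNNB1 521 nt after the stop: agtgactcaagaagtgaagaatgcacaaga
CTNNB1 921 nt after the stop: tatttcaTGTttttgatcaaaaactatttg

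Both nuclear partners of β-catenin among the 9 genes were above input in all 3 samples. TCF7L2 (chr10:114710006-114927437, plus strand), which encodes the DNA-binding factor TCF4, had 543 IP over 70 input reads in SK-Mel-103, 501 over 49 in UACC-62 replicate 1 and 759 over 61 in replicate 3. The log2 ratio was 2.56 (95% interval 2.22 to 2.96) for SK-Mel-103 and 3.04 ± 0.18 (SD, n = 2) in UACC-62. These values stood at the 98.7, 99.1 and 98.1 percentiles of all genes. Among 2529 to 2873 genes with a number of reads within a factor of 2 of its own they stood at the 99.6, 99.3 and 99.2 percentiles. All listed exonic bins of TCF7L2, 41, 46 and 53, lay in its 3′ UTR, with none in the 88 bins of the coding region or the 81 of the 5′ UTR. Of these listed bins, 12, 19 and 23 had no input read. In bins with at least 1 input read, the log2 ratio was 2.21 for SK-Mel-103 and 2.52 for the UACC-62 mean. In bins of more than 30 IP reads it was 2.69 for both.

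Bins of TCF7L2 were nevertheless shallow. It had 3, 1 and 4 bins of more than 30 IP reads, none of them at the same place in all 3 samples, and is therefore not among the bound genes. Of 62 bins listed in any sample, 26 (41.9%) were listed in all 3. If a bin anywhere in the exons of each sample sufficed, TCF7L2 would be the fourth bound gene. Its most covered bin, 46 nt before the end of the transcript, had 28, 27 and 65 IP reads over 5, 3 and 6 input reads, and another, 1103 nt after the stop codon, had 39, 33 and 21 over 6, 5 and 3. The former passed the filter in UACC-62 replicate 3 and the latter in the other two. Sequences around 3 bins (chr10:114927376-114927405, chr10:114926816-114926845 and chr10:114927176-114927205, plus strand) are shown because TCF7L2 had the highest IP over input of the 9 genes without a GU-rich element in its 3′ UTR, with UGU in capitals:
TCF7L2 1663 nt after the stop: TGTacagtatcTGTagcatgccgttctgga
TCF7L2 1103 nt after the stop: tacaaaactttacgtgccaaaattctcagt
TCF7L2 1463 nt after the stop: gccatTGTagttgacatgaagcgatTGTaa

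LEF1 (chr4:108968701-109090112, minus strand), the partner factor named for lymphoid enhancers, was the gene of the 9 whose IP rate differed most between the lines. It had 633 IP over 321 input reads in SK-Mel-103, 2353 over 857 in UACC-62 replicate 1 and 2617 over 958 in replicate 3. In RPKM, the IP rate was 13.5 in SK-Mel-103 and 48.6 and 42.4 in UACC-62, and the input rate 8.89 and then 19.7 and 25.2, so that both were lower in SK-Mel-103. Melanocyte markers were also lower in that line, as given above, and their part in this difference was not tested. Input was counted only in listed bins, which for LEF1 numbered 53 in SK-Mel-103 and 87 and 94 in UACC-62. The input rate is therefore not a measure of the whole mRNA, and the part of the listed bins in the difference was not tested. In bulk lysates, fewer cells with LEF1 mRNA and less LEF1 mRNA per cell cannot be told apart either. Relative to input, LEF1 had log2 values of 0.60 (95% interval 0.41 to 0.80) in SK-Mel-103 and 1.025 ± 0.39 (SD, n = 2) in UACC-62, where replicate 1 had 1.30 and replicate 3 had 0.75. The difference between SK-Mel-103 and the UACC-62 mean was −0.42, close to the SD of the UACC-62 replicates.

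All 4 common bins of LEF1 lay near the end of its 3′ UTR, 27 to 247 nt before the end of the transcript. The last bin had 31, 153 and 193 IP reads over 16, 20 and 35 input reads, and the one before it 43, 141 and 182 over 12, 38 and 42. Reads of both UACC-62 replicates were far above those of SK-Mel-103, which passed the filter in these bins only narrowly. Along the 3′ UTR, the log2 ratio was −0.04, 0.997 and 0.57 in the first of 3 equal parts and 0.93, 1.85 and 1.09 in the last, which was higher in each sample. Sequences of 30 nt around the 4 common bins (chr4:108968716-108968745, chr4:108968736-108968765, chr4:108968776-108968805 and chr4:108968936-108968965, minus strand) are shown because each holds UGU, in capitals:
LEF1 1186 nt after the stop: tttaaaagaagcttTGTaataaaacatttt
LEF1 1166 nt after the stop: gttaaTGTgctgagcatttttttaaaagaa
LEF1 1126 nt after the stop: gcccaaaacTGTcatcctaacgttTGTcat
LEF1 966 nt after the stop: tatcaccccctTGTTGTaaaaagcccagca

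Ordered by the mean of the UACC-62 replicates, the genes ran TCF7L2, AXIN2, LEF1, GSK3B, LRP6, APC, AXIN1, GSK3A and CTNNB1. Over the 3 samples, the ranges of TCF7L2 and AXIN2 did not overlap, and those of LEF1 and GSK3B did not overlap either. The other 6 pairs of neighbours overlapped. The gap between LEF1 and GSK3B, 0.05 on the log2 scale, was smaller than the SD of either gene in UACC-62.

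The 3′ UTR was compared with the coding region within each gene, which removes the total of the gene and of the list. Of the 7 genes with listed bins in both regions in every sample, 6 had higher log2 IP over input in the 3′ UTR in all 3 samples, namely CTNNB1, APC, GSK3A, GSK3B, LEF1 and LRP6. The same was true of 44.4% of 7318 genes. For GSK3B the difference was 1.39, 1.90 and 1.51, the largest of the 7 genes in both UACC-62 replicates, and the medians over all genes were 0.30, 0.28 and 0.22. For APC it was 1.07, 1.46 and 0.90, for LRP6 0.80, 0.47 and 1.04, and for LEF1 0.48, 1.38 and 0.75. GSK3A, at 1.79, 0.63 and 0.39, was the largest in SK-Mel-103 but rested on 13 to 17 IP reads in its 3′ UTR. AXIN1, with 8 to 11 IP reads there, had differences of 0.92, 0.12 and −0.10 and was the exception.

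**Figure D3:**
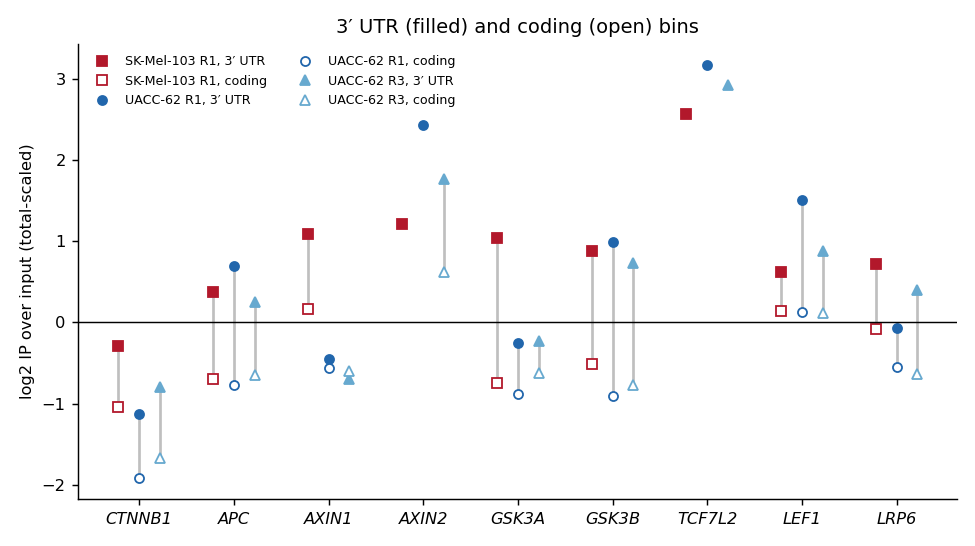
Log2 IP over input of the 3′ UTR (filled) and of the coding region (open) of each gene in the 3 samples, joined by grey lines; coding values are missing where no coding bin was listed. Filled symbols lie above open ones in all samples for CTNNB1, APC, GSK3A, GSK3B, LEF1 and LRP6, and TCF7L2 has no open symbol.

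GU-rich elements (GREs), the sequence class that CELF1 is known to bind, were searched in the annotated 3′ UTRs on the transcript strand. A GRE was an 11-nt stretch with up to 2 mismatches to either of 2 repeats, one being U followed by GU 5 times and the other UGU followed by UUGU 2 times, and overlapping matches were merged. GREs were found in 5 of the 9 genes (APC, AXIN2, GSK3B, LEF1 and LRP6) and in 55.3% of 19707 genes with a 3′ UTR. GSK3B had 10 merged elements, or 1.79 per kb, compared with 0.778 per kb over all 3′ UTRs. LRP6 had 4, APC and AXIN2 had 2 each and LEF1 had 1. CTNNB1 and TCF7L2, the lowest and the highest of the 9 genes relative to input, had none, nor did AXIN1 and GSK3A. The 7-nt cores UGUUUGU and UGUGUGU, which lie within the repeats, were present without mismatch in 3 of the 9 genes (APC, GSK3B and LRP6) and in 41.7% of all genes.

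The longest GRE was a GU repeat of 41 nt in GSK3B, 2422 to 2462 nt after the stop codon. The 30 nt at its centre (chr3:119543182-119543211, minus strand) lie within the element throughout and are shown with 2 single elements of the same 3′ UTR (chr3:119544235-119544264 and chr3:119543725-119543754) and the element of LEF1 (chr4:108969414-108969443), capitals marking the GRE:
GSK3B 2422 nt after the stop: GTGCATGTGTGCGTGTGTGTGTGTGTGTGT
GSK3B 1383 nt after the stop: ttaagagttTTTGTGTCTGTTTtctttgtg
GSK3B 1892 nt after the stop: gctccttaACTGTGTGTGTGACTctccaag
LEF1 484 nt after the stop: aagagttcccTCTTTGTTTCTgcttcattt
The bins over the long repeat of GSK3B had 71, 60 and 25 IP reads over 11, 11 and 6 input reads, and those over the element at 1383 nt 41, 21 and 17 over 6, 1 and 3. Both therefore had more IP than input reads in every sample, though fewer in UACC-62 replicate 3. The element of LEF1 had 12, 29 and 16 IP reads over 4, 12 and 15 input reads, less than the common bins of that gene.

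**Figure D4:**
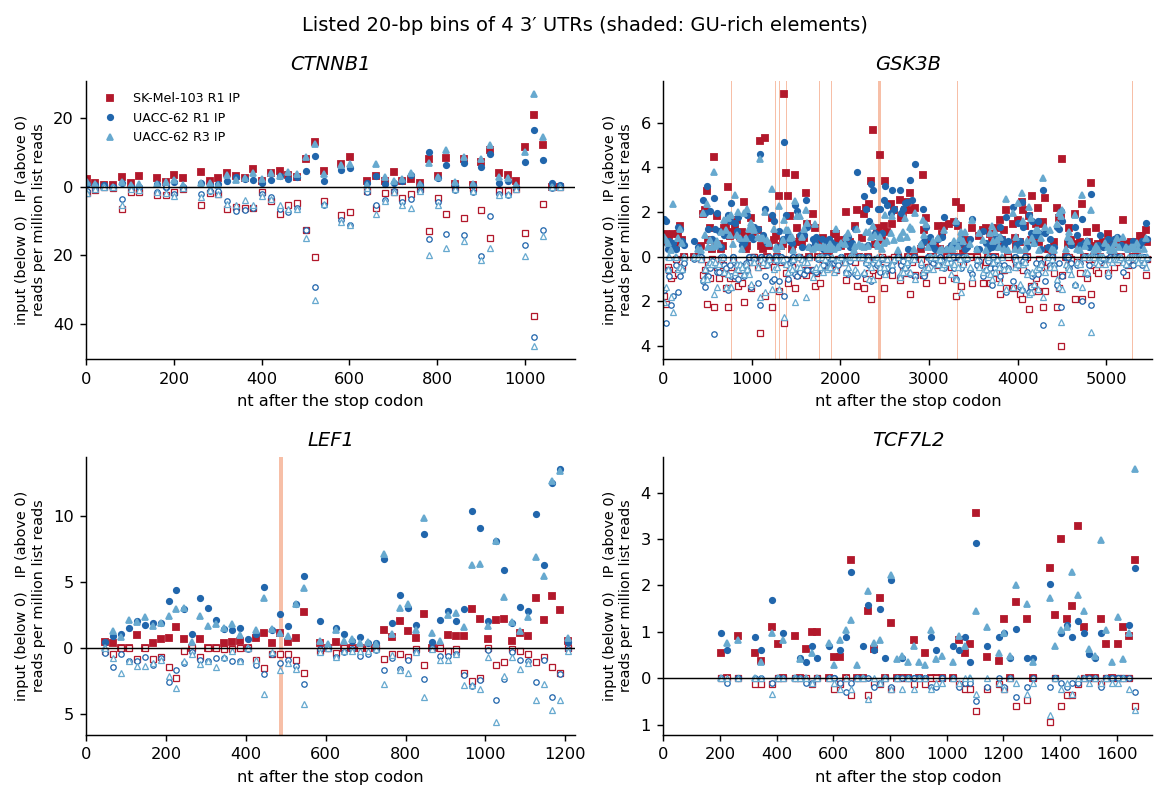
Listed 20-bp bins along the 3′ UTRs of CTNNB1, GSK3B, LEF1 and TCF7L2 by distance from the stop codon (x axis, nt), with IP reads above 0 and input reads below it, each as RPM of its list total, for SK-Mel-103 replicate 1 (squares), UACC-62 replicate 1 (circles) and UACC-62 replicate 3 (triangles). Shaded bands are GREs, which are present in GSK3B and LEF1 and not in CTNNB1 and TCF7L2; the bins of LEF1 with the most IP reads lie at its end, away from its GRE.

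Bins near GREs were compared with other bins of the same 3′ UTRs. In the 5 genes with a GRE, 3′ UTR bins that overlapped an element or lay within 20 nt had together a log2 ratio of 1.019, 1.15 and 0.45, from 40, 39 and 44 bins. The bins farther away had 0.74, 0.94 and 0.70. The near bins were thus higher in 2 samples and lower in the third. GSK3B supplied most IP reads of the near bins, 463 of 606, 415 of 580 and 359 of 505. Alone it gave 1.13, 1.40 and 0.65 near and 0.83, 0.93 and 0.75 away from its elements, the same order. LRP6 also had that order, with 0.79, 0.31 and 0.20 near and 0.71, −0.10 and 0.41 away. LEF1 was lower near its element in all 3 samples, with 0.38, 1.09 and 0.12 near and 0.63, 1.52 and 0.90 away. APC was higher near its elements only in SK-Mel-103, and AXIN2 had bins of both kinds in no sample. Neither of the 2 common bins of GSK3B nor any of the 4 of LEF1 lay within 20 nt of an element, the nearest being 168 nt away. In the 30 nt around common bins, UGU was found for 19 of 42 bins of the 9 genes (45.2%) and for 52.4% of 28807 common bins of all genes. CTNNB1 held 36 of the 42 bins, 22 of them coding, so that the 45.2% is mostly a value of that gene. UGU was present for all 4 bins of LEF1 and for the GSK3B bin 487 nt after the stop codon.

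Other genes of the pathway were taken from a list of 89 genes sorted by role, of which 45 had a listed exonic bin in every sample. The list was chosen with earlier results of these data known. A common bin was found in 12 of the 89 (13.5%), compared with 8.71% of all genes. The log2 ratio was above 0 in all 3 samples for 22 of the 45 (48.9%, compared with 31.2% of all genes) and below 0 for 11 (24.4%, compared with 43.8%). Without division by the list totals these counts were 26 and 2, and relative to the median of all genes 23 and 8. Ligands and secreted inhibitors were mostly without listed bins, with 4 of 21 and 1 of 12 genes listed in every sample.

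Partners of the destruction complex held most bound genes of the list, 7 of 12, compared with 8.71% of all genes. Of these 12 partners, 11 had a listed exonic bin in every sample. Among genes so listed, the counts were 7 of 11 partners and 1728 of 10040 genes. FBXW11, a subunit of the ubiquitin ligase that recognises phosphorylated β-catenin, had 78 common bins, 68 of them in the 3′ UTR, and log2 ratios of 1.57 for SK-Mel-103 and 2.16 ± 0.13 (SD, n = 2) in UACC-62. TNKS, a tankyrase that marks Axin for degradation, had 16 common bins and values of 1.38 and 1.29 ± 0.01, and CSNK1E, a casein kinase 1, had 2 common bins with 1.03 and 1.11 ± 0.04. These 3 were above input in every sample. CSNK1A1, the casein kinase that primes β-catenin, had 24 common bins but −0.61 and −1.023 ± 0.47, and the phosphatase subunits PPP2CA and PPP2R1A had 19 and 4 common bins with −0.23 and −0.77 ± 0.38, and −0.63 and −0.82 ± 0.27. TNKS2 had 1 common bin. As in CTNNB1, common bins thus occurred in genes below as well as above their input.

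Among the nuclear partners, 6 of the 7 listed genes were above 0 in every sample and none was below. Over all genes, the shares were 31.2% above and 43.8% below. PYGO2, a coactivator recruited to β-catenin through BCL9, was bound with 20 common bins, all in its 3′ UTR, and had log2 IP over input of 2.01 and 3.003 ± 0.19 (SD, n = 2). TCF7L2, at 2.56 to 3.17, overlapped its range of 2.01 to 3.14. Of the 4 listed adhesion partners, 3 were below 0 in every sample, as were 43.8% of all genes. CTNNA1, the α-catenin that binds β-catenin at junctions, had values of −1.38 and −1.78 ± 0.35 and 4 common bins, and CTNND1, p120 catenin, −0.77 and −0.82 ± 0.14. Ranked by the highest of the 3 samples, these were the lowest genes of the list among those with at least 50 reads in each sample, followed by PPP2R1A. CTNNB1, which belongs to both compartments, lay between CTNND1 and CTNNA1 in both UACC-62 replicates and above both in SK-Mel-103.

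Receptors included RYK, a receptor with a Wnt-binding domain, which had 21 common bins and values of −0.23 and 0.13 ± 0.42 (SD, n = 2), and FZD4, a Frizzled, with 1.81 and 2.91 ± 0.13 but no common bin. Of the targets of the pathway, CCND1, which encodes cyclin D1, had 131 common bins, 128 of them in the 3′ UTR, and log2 ratios of 2.19 for SK-Mel-103 and 2.86 ± 0.06 (SD, n = 2) in UACC-62, the highest of the list by its lowest sample among genes with at least 50 reads in each. Its reads numbered 51389, 19262 and 22065 in the IP and 8713, 2451 and 1812 in the input. CD44, a cell surface receptor, had 121 common bins with lower values of 0.30 and 0.58 ± 0.13. In number of common bins, both exceeded CTNNB1.

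**Figure D5:**
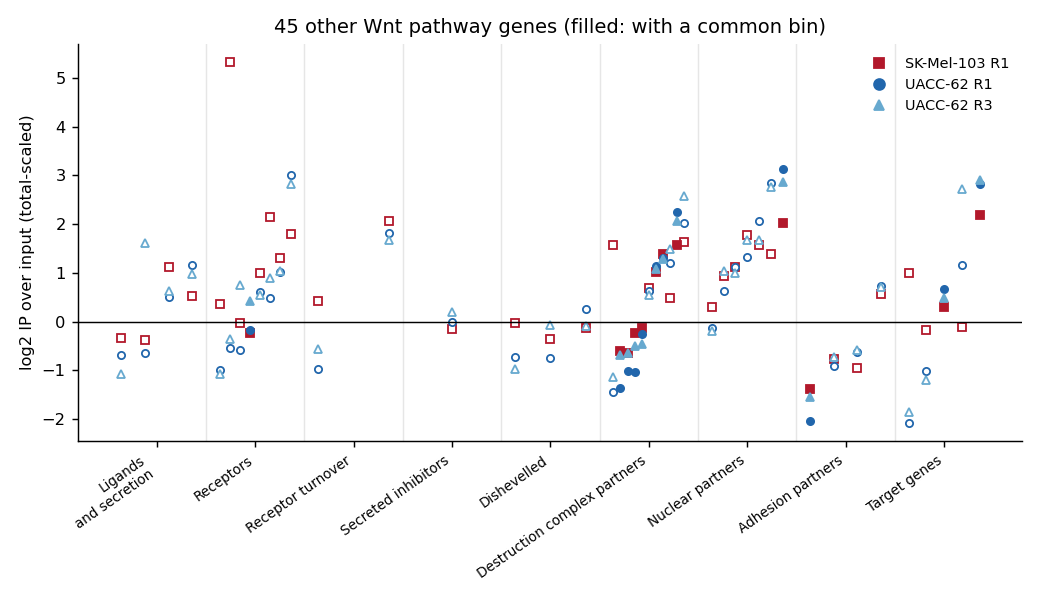
Log2 IP over input of the 45 other pathway genes with listed bins in every sample (y axis), grouped by role and sorted within a role, for SK-Mel-103 replicate 1 (squares), UACC-62 replicate 1 (circles) and UACC-62 replicate 3 (triangles); filled symbols are genes with a common bin. In the nuclear partners 6 of 7 genes lay above 0 in all samples, and in the adhesion partners 3 of 4 below. The shares over all genes were 31.2% above and 43.8% below.

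The genes most like CTNNB1 were found by the Euclidean distance over 6 values, the log2 IP and log2 input rates per kb of exon in the 3 samples. Among 10039 genes, PLS3 (distance 0.51), PPP1CC (0.58) and SFPQ (0.61) were nearest, compared with a median distance of 10.5. Their log2 IP over input was −0.84, −1.73 and −1.39 for PLS3, −0.68, −1.14 and −0.77 for PPP1CC and −0.83, −1.33 and −1.08 for SFPQ. The log2 ratio is the difference of the rates used for the distance, so that these values are a description of the choice.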

How the data were processed

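CELF1 RIP-Seq was analysed for 3 IP samples (1 SK-Mel-103, 2 UACC-62) with their inputs, grouped by their labels. The authors aligned 40-nt reads to GRCh37 with TopHat (TopHat2 2.0.4 per the labels) and called 20-bp bins with Piranha, with input as covariate. The deposited read counts are raw IP reads per passing bin, and the p-value deposited by the authors is that of Piranha. The deposited ratio of the last column scales the input of a bin, with 0.01 for none. Input reads were recovered from it as whole multiples of its smallest step, for 100% of values. Multiple alignments of a read were allowed, and only passing bins are listed, so that IP over input is conditional on passing.

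Transcript strand was taken as the reverse of the listed one. Exons came from GENCODE 44 mapped to GRCh37 (protein-coding transcripts), and sequences from the GRCh37 genome. Distances after the stop codon refer to 1 coding transcript per gene. No test between lines or of IP against input was run. The 9 genes, the pathway list and the naming rules (all 9 genes, pathway genes with a common bin, the 3 highest and 3 lowest pathway genes, and the 3 genes nearest to CTNNB1) were chosen with earlier results of these data known. PCR duplicates could not be counted. The steps were tested on simulated data. Software comprised pandas 2.3.3 and numpy 2.4.6 under Python 3.11.15, with scipy 1.17.1 for intervals, pysam 0.24.0 and samtools 1.23.1 for sequences and matplotlib 3.10.9 for figures.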

Additional observations from a re-analysis of the deposited data

Results flagged for a closer look

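AXIN1 and LRP6 differed in sign between the lines. Log2 IP over input was above 0 in SK-Mel-103 and below 0 in both UACC-62 replicates, and the difference between SK-Mel-103 and the UACC-62 mean was 0.95 for AXIN1 and 0.54 for LRP6. The difference was not tested, SK-Mel-103 having 1 sample, and AXIN1 had 47 IP reads at most in a sample. Relative to the median of all genes LRP6 was above 0 in all 3 samples.

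Bins in introns, on the transcript strand, were listed for most of the 9 genes and belong to no comparison above. The lowest of the 3 samples had a log2 IP over input of 1.11 for CTNNB1, 1.98 for APC, 1.5004 for GSK3B, 1.19 for TCF7L2, 1.65 for LEF1 and 2.37 for LRP6. Intronic bins of all genes together had 1.07, 1.88 and 1.57 in SK-Mel-103 and UACC-62 replicates 1 and 3. No intronic bin of the 9 genes exceeded 30 IP reads in any sample. GSK3B had the most of them, with 233, 254 and 120 bins and 1279, 1471 and 571 IP reads. CTNNB1, below its input in exons, was above it in introns in all 3 samples, at 1.11, 1.67 and 2.35, from 666, 286 and 337 IP reads. These reads were spread over 120, 54 and 61 bins, and no listed bin of any gene had fewer than 4 IP reads. Only bins that passed the peak caller were listed, and the part of that selection in the contrast with exons was not tested.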

How the results depend on the processing

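Log2 IP over input of the 9 genes was recomputed under other settings, which gave 159 values. Of these, 119 moved by less than their error, 31 by more with the same sign, and 9 changed sign. The 119 include 16 values that could not move, because a minimum of 50 reads in every sample only leaves genes out. Leaving out bins shared with another gene could not move genes without such bins either, among them CTNNB1, GSK3B, TCF7L2 and LEF1. For UACC-62, the error was the SD of only 2 replicates. The count of 119 therefore overstates how stable the values were. APC in UACC-62 became 0.14 without division by the list totals, 0.028 relative to the median of all genes, 0.58 in bins of more than 30 IP reads and 0.47 in 3′ UTR bins alone, where SK-Mel-103 gave 0.37 for APC and 1.04 for GSK3A, the latter from 15 IP reads. LRP6 in UACC-62, of mixed sign between the lines, became 0.28 without division by the totals, 0.17 relative to the median and 0.16 in 3′ UTR bins. With no replicate block, pooling both UACC-62 pairs of IP and input instead of averaging the pairs by replicate number gave −1.44 for CTNNB1 and 3.07 for TCF7L2 and moved none of the 9 genes by more than 1 SD.

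Bound genes numbered 7 without the read filter, 1 (CTNNB1) above 100 IP reads and 0 on the listed strand, and 3 to 4 when single IP samples were left out, APC being the fourth without SK-Mel-103 and TCF7L2 without UACC-62 replicate 3. Genes above 0 remained 4 and those below 0 were 3 to 5 when single samples were left out, 5 being reached without SK-Mel-103, where AXIN1 and LRP6 were also below. Genes below 0 numbered 1 without division by the totals, 1 above 30 reads and 1 in 3′ UTR bins, each time CTNNB1. Above 30 reads, only 4 genes had a value in every sample, and APC and GSK3A were not among them. With at least 50 reads in every sample, a minimum chosen after seeing the data, 3 genes were above, without AXIN2. The 3′ UTR exceeded the coding region in 6 to 7 genes when single samples were left out and in 1 gene above 30 reads, the only one that could then be compared. GREs were found in 2 genes with up to 1 mismatch, 2 without mismatch and 3 by the 7-nt cores. Of the other pathway genes, 4 were bound above 100 reads and 13 to 16 when single samples were left out, 22 to 24 and 12 to 19 were then above and below 0 (19 without SK-Mel-103), and 2 were below without division by the totals. The cause of these changes was not tested, beyond the fewer bins or samples that a stricter setting leaves. Depth limits AXIN1, AXIN2 and GSK3A most.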
